A study of Mus musculus with 6 samples.

Results

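Transcripts of 10 granulocyte genes were followed through 6 RNA sequencing libraries of natural killer (NK) cells sorted from mouse spleen. The genes were S100a8, S100a9, Csf3r, Retnlg, Mpo, Elane, Ngp, Camp, Ltf and Lcn2, chosen by name from the 24343 genes of the deposited tables, and all 10 had a row in every library. The donors were female C57BL/6 mice. There were 3 libraries from mice given complexes of IL-15 (IL-15C) and 3 from mice given complexes of IL-2 (IL-2C); the labels give no dose, time, age or carrier protein, and they do not say how many mice a library holds or whether libraries came from separate mice. Sorting demanded both NK1.1 and NKp46 on each cell and removed those with CD3 or CD1d tetramer staining; the labels name no granulocyte marker among the sort antibodies. Untreated cells were not analysed here.

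Neutrophils, the most common granulocytes, fill their granules in steps as they mature in bone marrow. Azurophil granule proteins such as myeloperoxidase (Mpo) and neutrophil elastase (Elane) are made first, at the promyelocyte stage. Specific granule proteins follow at the myelocyte stage, among them neutrophilic granule protein (Ngp), the antimicrobial cathelicidin (Camp), the iron-binding lactoferrin (Ltf) and lipocalin 2 (Lcn2), which captures bacterial siderophores. Mature cells carry large amounts of S100a8 and S100a9, whose products pair to form calprotectin, and express Csf3r, the receptor for granulocyte colony-stimulating factor, and Retnlg, a secreted resistin-like protein. None of these genes is a usual marker of NK cells.

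The level of 9 of the 10 genes was highest in a single library, IL-15C replicate 1. For 7 of them, S100a8, S100a9, Mpo, Ngp, Camp, Ltf and Lcn2, that library was at least 1.5 times every other library. Csf3r, Retnlg and Mpo were higher in every IL-15C library than in every IL-2C library (8.45% of all genes were), whereas the specific granule genes and calprotectin overlapped between the groups. The share of all 12066 genes with a mean of at least 0.1 FPKM (fragments normalised for transcript length and for the mapped fragments of the library) that peaked in IL-15C replicate 1 was 24.8%. The share that reached 1.5 times every other library there was 0.887%. This 1.5-fold cut was added after the data were seen. The 10 genes were also chosen with earlier results of these data known, so the contrasts with these shares are descriptions. The remaining gene, Elane, was highest in IL-15C replicate 3, as were 5.61% of all genes. The lowest value fell in IL-15C replicate 2 for 5 genes (S100a9, Ngp, Camp, Ltf and Lcn2; 19.7% of all genes), in IL-2C replicate 2 for 2 (Mpo and Elane; 9.66%) and in IL-2C replicate 3 for 3 (S100a8, Csf3r and Retnlg; 18%).

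Several of these genes lie close together. S100a8 (chromosome 3, 90669071 to 90670034 in mm10) and S100a9 (90692630 to 90695721) are separated by 22.6 kb. Camp (109847377 to 109849456), Ngp (110419808 to 110423012) and Ltf (111019292 to 111042766) share a 1.20 Mb stretch of chromosome 9. The others are spread, with Csf3r on chromosome 4, Retnlg on chromosome 16, Mpo on chromosome 11, Elane on chromosome 10 and Lcn2 on chromosome 2.

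The 250 bases before the transcription start are shown for 5 of the 10 genes, from RefSeq on GRCm38.p6 (mm10), read 5′ to 3′ on the strand of the gene. Ngp and Ltf were taken from the specific granule genes, S100a8 from calprotectin, and Mpo and Csf3r from the genes whose groups did not overlap. They do not represent these classes: Camp, Lcn2, S100a9 and Retnlg, not shown, differ from them in their matches, given below. Capitals mark matches, on either strand, to TTGCNNAA (a core of C/EBP binding sites), GAGGAAG (a core of PU.1 sites) or TATAAA (the TATA box); none of these matches overlapped another. All 5 genes lie on the plus strand, and the windows are chr9:110419558-110419807 for Ngp, chr9:111019042-111019291 for Ltf, chr3:90668821-90669070 for S100a8, chr11:87793534-87793783 for Mpo and chr4:126024409-126024658 for Csf3r.
Ngp: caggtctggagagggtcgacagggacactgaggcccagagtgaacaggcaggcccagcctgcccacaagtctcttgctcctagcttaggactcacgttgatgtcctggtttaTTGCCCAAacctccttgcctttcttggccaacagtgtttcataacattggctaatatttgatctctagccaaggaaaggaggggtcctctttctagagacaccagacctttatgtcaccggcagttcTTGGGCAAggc
Ltf: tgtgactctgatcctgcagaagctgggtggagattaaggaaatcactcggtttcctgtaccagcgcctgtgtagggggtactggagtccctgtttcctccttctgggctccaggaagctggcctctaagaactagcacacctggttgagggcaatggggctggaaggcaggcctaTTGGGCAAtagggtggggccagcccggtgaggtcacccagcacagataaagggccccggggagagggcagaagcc
S100a8: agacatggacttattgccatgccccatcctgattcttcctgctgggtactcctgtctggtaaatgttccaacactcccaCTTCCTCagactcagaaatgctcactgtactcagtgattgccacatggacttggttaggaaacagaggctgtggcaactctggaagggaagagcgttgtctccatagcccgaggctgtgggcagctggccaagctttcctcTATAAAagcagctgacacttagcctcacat
Mpo: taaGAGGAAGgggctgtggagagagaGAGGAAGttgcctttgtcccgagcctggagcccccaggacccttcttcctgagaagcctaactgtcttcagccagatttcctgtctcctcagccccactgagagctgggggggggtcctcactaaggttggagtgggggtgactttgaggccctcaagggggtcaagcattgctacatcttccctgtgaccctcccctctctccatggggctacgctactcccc
Csf3r: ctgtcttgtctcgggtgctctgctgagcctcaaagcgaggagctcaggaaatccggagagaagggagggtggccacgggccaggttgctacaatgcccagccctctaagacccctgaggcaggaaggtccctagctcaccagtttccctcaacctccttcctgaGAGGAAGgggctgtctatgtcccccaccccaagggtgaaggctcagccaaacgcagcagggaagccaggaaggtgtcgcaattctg
C/EBP factors and PU.1 are transcription factors of granulocyte development. All 10 genes matched an entry of the promoter table. Letters of the C/EBP core were found before 5 of the 10 genes (S100a9, Retnlg, Ngp, Ltf and Lcn2), and before 9.56% of 32851 promoters of the same length. Letters of the PU.1 core were found before 5 (S100a8, Csf3r, Mpo, Elane and Lcn2), against 10.6% of all promoters, and TATAAA before S100a8 alone, against 12.4%. Camp held none of the 3. A match describes letters in this window and says nothing of binding.

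The libraries were of similar depth, with 23543141 to 27229145 fragments implied by the deposited intervals. Sorted cells carried the NK transcripts in all libraries: Ncr1, the gene of NKp46, lay between 755 and 832 FPKM, the granzyme gene Gzma between 5078 and 6048 FPKM and the granule gene Nkg7 between 1658 and 1894 FPKM. The summed level of the 10 granulocyte genes was 116, 42.9 and 57.5 FPKM in IL-15C replicates 1, 2 and 3, and 63.1, 57.3 and 42.7 FPKM in IL-2C replicates 1, 2 and 3. IL-15C replicate 1 stood above the other 5, which formed a single range without a gap between the groups. The IL-15C mean of 72.1 FPKM ± 38.5 (SD, n = 3) over the IL-2C mean of 54.4 ± 10.5 gave a ratio of 1.33. Without IL-15C replicate 1 the ratio was 0.924, so that library alone set its direction. In bulk RNA, a few cells rich in these transcripts and many cells with little of them cannot be told apart.

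**Figure D1:**
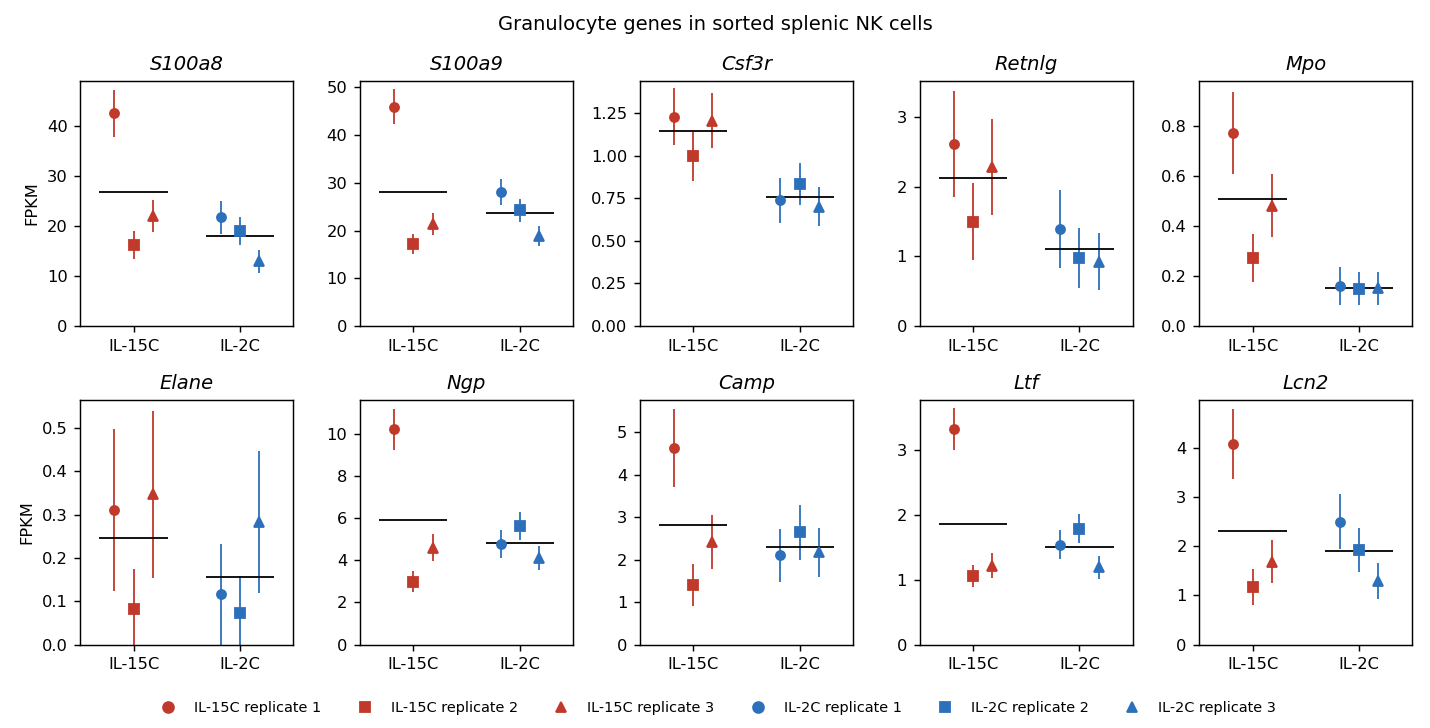
FPKM (vertical axis, linear, from 0) of each granulocyte gene in the 3 IL-15C and 3 IL-2C libraries; symbols give the replicate, error bars the bounds deposited by the authors, and horizontal lines the group means. IL-15C replicate 1 (red circle) is the highest point in 9 of 10 panels, and the groups do not overlap for Csf3r, Retnlg and Mpo.

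Calprotectin transcripts were the most abundant of the set on the FPKM scale, which divides by transcript length. S100a8 measured 42.6, 16.3 and 22.0 FPKM in IL-15C and 21.8, 19.1 and 12.97 FPKM in IL-2C. Its partner S100a9 measured 46.0, 17.2 and 21.3 FPKM in IL-15C and 28.0, 24.2 and 18.9 FPKM in IL-2C. For both genes IL-15C replicate 1 was far above the rest, and the other IL-15C libraries lay inside or below the IL-2C range, except that IL-15C replicate 3 was marginally above it for S100a8. S100a8 rested on 335 implied fragments in that library, with an exact 95% Poisson interval, for counting error alone, from 300.1 to 373, and on 124 to 188 elsewhere. S100a9, with a mean above that of 83.9% of detected genes, rested on 287 to 629. The mean ratio of the groups was 1.50 for S100a8 and 1.07 without IL-15C replicate 1, and 1.19 and 0.812 for S100a9. On the log2(FPKM + 1) scale, which understates changes of low genes, limma's fit over 9831 genes gave 0.48 ± 0.30 (SE) for S100a8, with an adjusted p of 0.329, and 0.13 ± 0.29 for S100a9, with an adjusted p of 0.808.

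The ratio of the calprotectin partners was lower in each IL-15C library than in each IL-2C library, although neither gene passed the limma test. S100a9 amounted to 1.08, 1.06 and 0.969 times S100a8 under IL-15C, against 1.29, 1.27 and 1.46 times under IL-2C. This ratio was chosen after its values were seen, so it is a description. It was not tested, the counting error of both genes is not included, and no share over other gene pairs was computed.

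The 4 specific granule genes shared their extremes across the libraries. Ngp measured 10.2, 2.99 and 4.60 FPKM in IL-15C and 4.77, 5.63 and 4.09 FPKM in IL-2C. Camp measured 4.63, 1.41 and 2.42 FPKM in IL-15C and 2.11, 2.65 and 2.17 FPKM in IL-2C. Both genes had their highest and their lowest value inside the IL-15C group, in replicates 1 and 2, with the IL-2C libraries between them. Ltf had the same extremes, at 3.31, 1.05 and 1.22 FPKM in IL-15C against 1.54, 1.78 and 1.19 FPKM in IL-2C. Lcn2 measured 4.09, 1.18 and 1.69 FPKM in IL-15C and 2.50, 1.93 and 1.29 FPKM in IL-2C. Replicate 1 exceeded replicate 2 of the same treatment 3.42-fold for Ngp, 3.28-fold for Camp, 3.14-fold for Ltf and 3.48-fold for Lcn2. The implied fragments in these libraries were 440 and 139 for Ngp, 101 and 33 for Camp, 428 and 146 for Ltf and 134 and 40 for Lcn2. The exact Poisson intervals of replicates 1 and 2 did not overlap for any of the 4 genes; the closest pair was Camp, at 82.3 to 123 and 22.7 to 46.3 fragments.

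No specific granule gene differed between treatments beyond the spread of the libraries. The limma log2 changes were 0.12 ± 0.30 for Ngp, 0.12 ± 0.24 for Camp, 0.11 ± 0.24 for Ltf and 0.11 ± 0.27 for Lcn2, with adjusted p between 0.779 and 0.826. Without IL-15C replicate 1 the 4 changes were -0.30, -0.20, -0.22 and -0.24, so their sign turned with that library. The change of Lcn2 also turned without IL-2C replicate 3, to -0.05. An adjusted p of this size does not show that the treatments were alike.

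**Figure D2:**
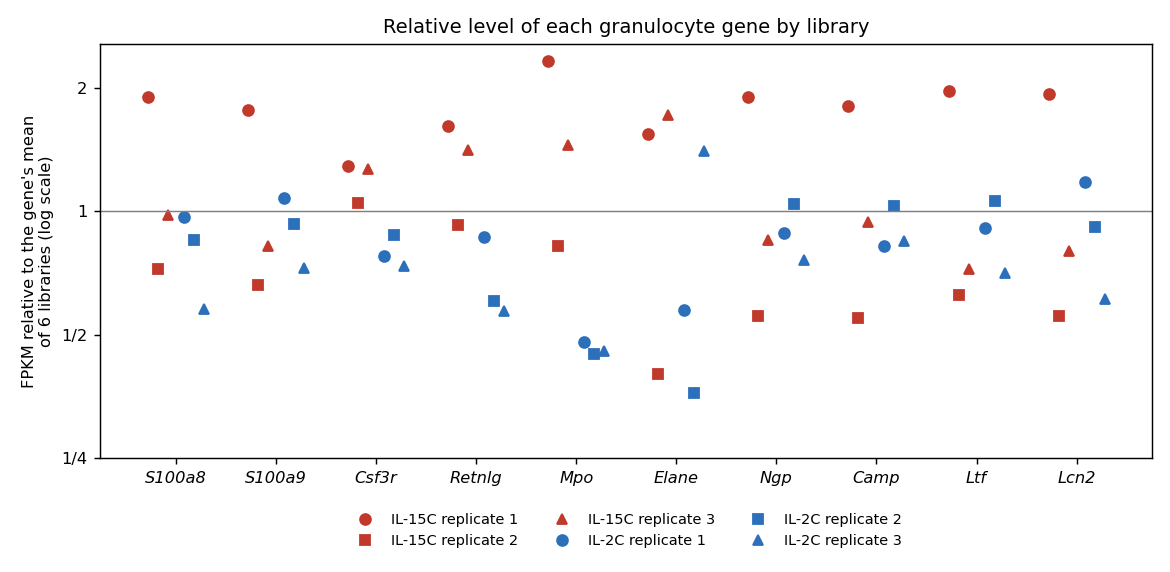
Level of each granulocyte gene in each library divided by the gene's mean over the 6 libraries (vertical axis, log scale); color gives the treatment and the symbol the replicate. Ngp, Camp, Ltf and Lcn2 share their ends, with IL-15C replicate 1 at the top and IL-15C replicate 2 at the bottom, while all IL-2C points of Mpo lie below all IL-15C points.

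Of the receptor and secreted products of mature neutrophils, Retnlg passed the test and Csf3r fell below its filter. Retnlg measured 2.61, 1.50 and 2.28 FPKM in IL-15C and 1.40, 0.976 and 0.923 FPKM in IL-2C. All IL-15C libraries lay above all IL-2C libraries, although IL-15C replicate 2 and IL-2C replicate 1 were close. The means were 2.13 FPKM ± 0.571 (SD, n = 3) and 1.10 ± 0.260, and limma gave a log2 change of 0.57 ± 0.14 with an adjusted p of 0.0445. The call of Retnlg ended when low genes were kept in the limma fit, at an adjusted p of 0.136. These values rest on 20 to 47 implied fragments per library. The exact Poisson intervals of IL-15C replicate 2 (19.4 to 41.6 fragments) and IL-2C replicate 1 (16.2 to 36.9) overlapped. The limma call held when IL-15C replicate 2 was omitted, at an adjusted p of 0.0256. Omitting any other library ended it: the adjusted p became 0.0552 for IL-15C replicate 1 and 0.105 for IL-15C replicate 3, and 0.0856, 0.142 and 0.106 for IL-2C replicates 1, 2 and 3. Retnlg has related genes on its chromosome, and reads shared with them could make its level uncertain.

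Csf3r measured 1.23, 0.995 and 1.21 FPKM in IL-15C and 0.739, 0.834 and 0.701 FPKM in IL-2C. It was the steadiest of the set, with a highest value 1.75 times its lowest and no separation of IL-15C replicate 1, which was 1.02 times the next library. Its groups did not overlap, from 125 to 227 implied fragments per library. The exact Poisson intervals of IL-15C replicate 2 (160 to 215 fragments) and IL-2C replicate 2 (150 to 203) did overlap. The means of Csf3r were 1.14 FPKM ± 0.129 (SD, n = 3) and 0.758 ± 0.0684, a ratio of 1.51, and 1.45 without IL-15C replicate 1. The mean over all libraries was under the 1 FPKM filter, so an exact two-sided permutation test was used, which gave p = 0.1, the smallest that 3 against 3 libraries allow. In the limma fit without a filter, its adjusted p was 0.0831.

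The azurophil granule genes were the rarest. Mpo measured 0.771, 0.272 and 0.480 FPKM in IL-15C and 0.159, 0.148 and 0.151 FPKM in IL-2C. The IL-2C libraries were nearly equal and all lay below the lowest IL-15C library. In implied fragments Mpo had 88, 33 and 57 against 18, 20 and 21. The ratio of its means, 0.508 FPKM ± 0.250 (SD, n = 3) over 0.153 ± 0.00544, was 3.32, the largest of the 10 genes, and 2.46 without IL-15C replicate 1. The small IL-2C SD is no measure of precision, since the exact Poisson intervals of those libraries ran from 10.7 to 32.1 fragments. The exact two-sided permutation p of Mpo was 0.1, the smallest possible, and its adjusted p in the unfiltered limma fit was 0.155. Elane measured 0.311, 0.0809 and 0.347 FPKM in IL-15C and 0.116, 0.0729 and 0.283 FPKM in IL-2C, from 3 to 13 implied fragments, and its groups overlapped (exact permutation p = 0.4).

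**Figure D3:**
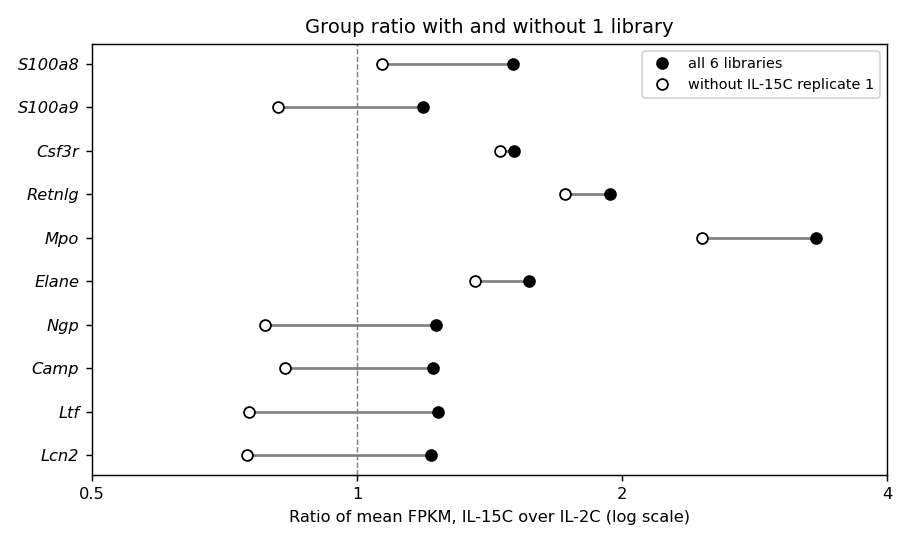
Ratio of mean FPKM, IL-15C over IL-2C (horizontal axis, log scale), for each granulocyte gene with all 6 libraries (filled) and without IL-15C replicate 1 (open); the dashed line marks a ratio of 1. All 10 filled points lie above 1, and 5 open points, those of S100a9, Ngp, Camp, Ltf and Lcn2, lie below it.

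Counted over the set, the mean of IL-15C was higher for 10 of 10 genes with all libraries, against 37.5% of the 12066 genes, and for 5 of 10 without IL-15C replicate 1, against 32.6%. Of the 7 genes that passed the filter of 1 FPKM, 1 was called, higher in IL-15C; over all 9831 genes tested, 1.72% were called higher and 4.72% lower, and 6.44% in either direction. After scaling to a common library median the calls over all genes were 325 higher and 207 lower in place of 169 and 464. The median log2 change was 0.12 for the 7 genes and -0.04 for all genes tested. Without IL-15C replicate 1 these medians were -0.22 and -0.05, and with array weights they were -0.18 and -0.05, so the sign for the granulocyte genes turned in both. Without IL-2C replicate 3 the median of the 7 genes was 0.03, and it lay between 0.19 and 0.41 with any of the other 4 libraries left out. Complete separation with IL-15C on top held for 3 of 10 genes (Csf3r, Retnlg and Mpo) against 8.45% of the 12066 genes. Without IL-15C replicate 1 it held for the same 3 of 10, against 10.2%. Leaving out a library cannot undo a separation, so the second count is no test of the first. The authors' deposited table, which pools each group, had all 10 genes higher in IL-15C, as were 50.2% of its 12333 rows with a mean of at least 0.1 FPKM. In the authors' deposited table Mpo, at 0.685 against 0.201 FPKM, was the only one of the 10 whose group intervals did not overlap, and the IL-15C interval lay above the IL-2C interval in 0.624% of those rows. The authors' deposited table gives Elane an interval of 0 to 11.9 FPKM in IL-15C, over a merged locus of 672333 bases.

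Whether the genes moved together was also read from their relations with S100a8 over the 6 libraries, on log2(FPKM + 1). Pearson's r lay between 0.684 and 0.933 for 8 of the 9 relations and was 0.341 for Elane. The strongest by r was Lcn2, with r = 0.933 (exact permutation p = 0.0125, adjusted over the 9 relations p = 0.0646) and Spearman's rho = 0.771 (exact permutation p = 0.103, adjusted p = 0.175). S100a9 had r = 0.929 (exact permutation p = 0.0167, adjusted p = 0.0646) and rho = 0.771 (exact permutation p = 0.103, adjusted p = 0.175). By rho the strongest was Retnlg, at 0.829 (exact permutation p = 0.0583, adjusted p = 0.175), and Csf3r had a rho of 0.771. No relation passed after adjustment for r or for rho. Leaving out the libraries farthest from the median of S100a8, IL-15C replicate 1 and IL-2C replicate 3, r was 0.772 for Lcn2, 0.739 for S100a9, 0.700 for Camp and 0.679 for Ngp, and 0.627 for Elane. It was 0.374 for Ltf, 0.380 for Retnlg, 0.211 for Mpo and -0.01 for Csf3r, whose r fell most without those libraries.

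Ratios within a library separated the genes that kept step from those that did not. Camp was 44.1% to 53.1% of Ngp in all 6 libraries, a spread of 1.20-fold, while each gene alone varied more than 3-fold. Ltf to Ngp varied 1.34-fold, Lcn2 to Ngp 1.66-fold and S100a8 to Ngp 1.72-fold. Mpo to Ngp varied 3.96-fold: Mpo was 7.54%, 9.12% and 10.4% of Ngp under IL-15C, against 3.33%, 2.64% and 3.69% under IL-2C. The groups did not overlap in this ratio, and IL-15C replicate 1 was the lowest of its group. Retnlg was 25.5%, 50.2% and 49.6% of Ngp under IL-15C, against 29.3%, 17.3% and 22.5% under IL-2C, where IL-15C replicate 1 fell among the IL-2C libraries. These ratios were chosen after the values were seen and are given without a test.

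**Figure D4:**
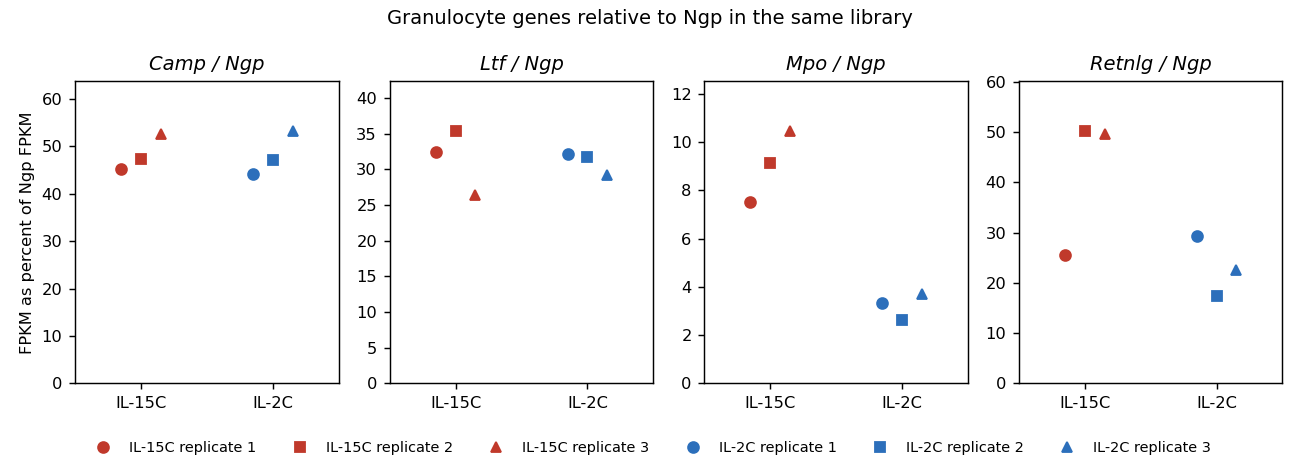
FPKM of Camp, Ltf, Mpo and Retnlg as a percent of Ngp FPKM in the same library (vertical axes, linear, from 0), by treatment and replicate. Camp stays between 44.1% and 53.1% in all libraries, and Mpo lies between 7.54% and 10.4% in IL-15C and between 2.64% and 3.69% in IL-2C.

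Other granulocyte genes were read from a list of 34, of which 33 had a row, Ly6g being without one. In every library 2 of them (Stfa2 and BC100530) were listed at 0, and 22 had a mean of at least 0.1 FPKM. Of those 22, 16 were highest in IL-15C replicate 1, against 24.8% of the 12066 genes, and 8 exceeded every other library 1.5 times there, against 0.887%. Chil3, a chitinase-like granule protein gene, stood out most among those above 1 FPKM, with 7.84, 1.97 and 1.86 FPKM in IL-15C against 2.06, 1.70 and 1.11 FPKM in IL-2C. Hp, which encodes haptoglobin, measured 1.70, 0.732 and 0.808 FPKM against 0.965, 0.944 and 0.522. The gelatinase gene Mmp9 measured 0.901, 0.540 and 0.921 FPKM against 0.771, 0.699 and 0.466.

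Azurophil partners of Mpo were close to the limit of detection. Prtn3, the proteinase 3 gene beside Elane, measured 0.525, 0 and 0.0905 FPKM in IL-15C and 0.0244, 0.0413 and 0.199 FPKM in IL-2C, from at most 22 implied fragments. Ctsg, which encodes cathepsin G, measured 0.299, 0.0867 and 0.150 FPKM in IL-15C and 0.0699, 0.0390 and 0.0382 FPKM in IL-2C. Its groups did not overlap, on 2 to 13 implied fragments. Ms4a3 was at 0 in IL-15C replicate 2 and reached 0.234 FPKM in IL-15C replicate 3.

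Of the 5 tested genes of this list, 1 rose, 0 fell and 4 did not pass limma's test, where 1.72% of all tested genes were called higher and 4.72% lower. The riser was Pglyrp1, a peptidoglycan recognition protein gene, with 101, 98.1 and 91.2 FPKM in IL-15C and 83.0, 78.6 and 77.9 FPKM in IL-2C, a log2 change of 0.28 ± 0.05 and an adjusted p of 0.0219. Pglyrp1 was several times as abundant as S100a8 and did not single out IL-15C replicate 1. Mxd1, a transcriptional repressor gene, and G0s2, a regulator of fat breakdown, were likewise well expressed in all libraries, at 27.8 to 33.9 FPKM and 11.8 to 14.6 FPKM, with log2 changes of -0.14 ± 0.05 and -0.11 ± 0.06 that did not pass. Ifitm6 had 2.43, 0.972 and 0.826 FPKM in IL-15C against 0.983, 1.93 and 0.754, and Slfn4 had 1.36, 0.713 and 0.739 FPKM against 0.540, 0.593 and 0.420.

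Among 10 genes of granulopoiesis and of partners of these proteins, 4 were tested and 0 were called by limma in either direction. Gfi1, a transcriptional repressor used by granulocyte precursors and by lymphocytes, lay between 20.4 and 29.2 FPKM. Tlr4 and Ager, receptors that calprotectin can engage, lay at 4.67 to 5.90 and 1.41 to 2.22 FPKM. Cebpb lay at 2.88 to 3.81 FPKM, while Cebpe, the C/EBP factor of specific granule genes, lay at 0.0873 to 0.297 FPKM. Csf3, the ligand of the Csf3r product, was listed at 0 in 5 libraries and at 0.0178 FPKM in IL-15C replicate 1.

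IL-15C replicate 1 also held more transcripts of some other cells, and how far that bears on the granulocyte genes was not tested. All 5 erythroid genes with a mean of at least 0.1 FPKM (of 8 with a row) peaked there, against 24.8% of the 12066 genes. At the same minimum, 2 of 7 monocyte and macrophage genes, 3 of 5 basophil and mast cell genes and 1 of 2 plasma cell genes peaked there. The erythroid list summed to 24.6 FPKM there, compared with 2.09 and 3.39 FPKM in IL-15C replicates 2 and 3 and 3.40 to 5.68 FPKM in IL-2C. Hba-a1, a hemoglobin gene whose near-identical copy makes its value uncertain, had 12.3 FPKM there and 0.360 to 3.16 FPKM elsewhere, and the carbonic anhydrase gene Car1 had 2.62 FPKM there and 0.884 to 2.00 FPKM elsewhere. Monocyte and macrophage genes (13) summed to 32.1 FPKM there and 17.7 to 26.0 FPKM elsewhere, mostly from Lyz2, a lysozyme gene that neutrophils also express. Of these, Lyz2 had 25.5 FPKM there and 12.2 to 19.99 FPKM elsewhere and Cd68 lay at 4.11 to 5.87 FPKM with its peak in IL-15C replicate 2, while the macrophage marker Adgre1 stayed at 0.0850 to 0.189 FPKM. Basophil and mast cell genes (5) summed to 3.24 and 2.86 FPKM in IL-15C replicates 1 and 3, 1.16 in replicate 2 and 1.76 to 2.00 FPKM in IL-2C. Prss34, a mast cell protease gene made by basophils, had 1.09, 0.296 and 0.939 FPKM in IL-15C and 0.382 to 0.520 FPKM in IL-2C. Ms4a2, a chain of the IgE receptor, lay at 0.345 to 0.633 FPKM and was highest in IL-2C replicate 1. Plasma cell genes (4) summed to 7.50 FPKM in IL-15C replicate 1 and 1.79 to 5.50 elsewhere. They were led by Jchain, the joining chain gene, at 6.61 FPKM there and 1.42 to 4.61 FPKM elsewhere. Mzb1 did not peak there: it lay at 0.0525 to 0.803 FPKM and was highest in IL-2C replicate 2.

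B cell genes did not follow the granulocyte pattern at its top. The 9 listed summed to 10.2, 1.10 and 3.96 FPKM in IL-15C and 9.87, 16.6 and 3.41 FPKM in IL-2C, so IL-2C replicate 2 was highest, and IL-15C replicate 2 was the lowest as it was for the specific granule genes. The antigen receptor chain genes Cd79b and Cd79a led this list, at 0.757 to 4.49 FPKM and 0.153 to 4.30 FPKM. Dendritic cell genes (6) stayed at 1.33 to 1.78 FPKM, mostly from Zbtb46, with Cd209a at no more than 0.177 FPKM. Platelet and megakaryocyte genes (6) summed to 7.32 to 9.97 FPKM, led by Gp1bb and Itga2b, and Gp1bb, a chain of the von Willebrand factor receptor, was lower in IL-15C by limma (log2 change -0.31 ± 0.06, adjusted p 0.02). Eosinophil genes (5) summed to 0.0790 to 0.288 FPKM, highest in IL-15C replicate 1, with Ccr3 at no more than 0.153 and Prg2 at no more than 0.147 FPKM. None of them reached a mean of 0.1 FPKM, and their sum in IL-15C replicate 3 was close, at 0.275 FPKM. T cell genes (10) summed to 91.3 FPKM in IL-15C replicate 1 and 71.4 to 78.8 FPKM elsewhere, mostly from Cd3g, Lef1 and Cd3d. Cd3g lay at 30.7 to 44.6 FPKM and was highest in that library. Lef1 lay at 16.2 to 21.0 FPKM and was highest in IL-2C replicate 1. Cd3e lay at 3.40 to 5.70 FPKM and was highest in IL-2C replicate 2. Cd4 and Cd8a reached no more than 0.0333 and 0.0767 FPKM. Of 6 T cell genes with a mean of at least 0.1 FPKM, 3 peaked in IL-15C replicate 1, against 24.8% of the 12066 genes. The NK genes (9) varied between 10185 and 11607 FPKM without a peak in that library.

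**Figure D5:**
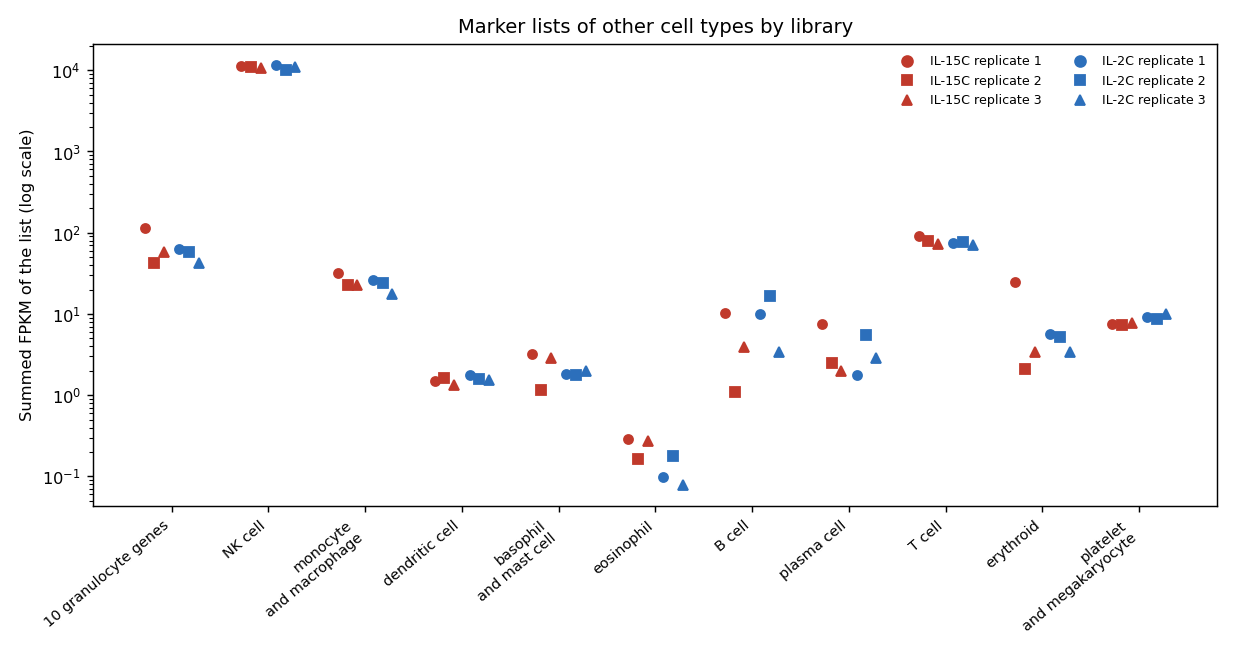
Summed FPKM (vertical axis, log scale) of the 10 granulocyte genes and of marker lists of other cell types in each library; color gives the treatment and the symbol the replicate. IL-15C replicate 1 is the top point for the granulocyte genes (116 FPKM) and for the erythroid list (24.6 FPKM). It is also the top point for the monocyte and macrophage, basophil and mast cell, eosinophil, plasma cell and T cell lists. A top sum does not mean that most genes of the list peaked there. IL-2C replicate 2 is the top point for the B cell list (16.6 FPKM), and other IL-2C libraries are for the NK cell, dendritic cell and platelet lists.

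Outside all lists, 78 genes reached 1 FPKM and varied at least 2-fold on the FPKM + 1 scale. Of these 78, picked for their variation, 28 peaked in IL-15C replicate 1, where 24.8% of the 12066 genes did. The 6 whose log2 level was most like the summed granulocyte level over the 6 libraries had correlations of 0.870 to 0.934, which describe likeness and share the weight of that library. They were Hbb-b1, Pim2, Snhg9, Atp6v0c-ps2, Art2a-ps and Art2b. Hbb-b1, a hemoglobin gene, had 11.9 FPKM in IL-15C replicate 1 and 0.403 to 1.90 FPKM elsewhere. Pim2, a survival kinase gene, had 49.3 FPKM there and 16.7 to 18.8 FPKM elsewhere, on at least 1418 implied fragments. Art2b, a surface ADP-ribosyltransferase gene, had 23.9, 6.83 and 11.3 FPKM in IL-15C and 5.01 to 6.55 FPKM in IL-2C. Its relative Art2a-ps had 3.03 FPKM in IL-15C replicate 1 and 0.913 to 1.86 FPKM elsewhere, and reads shared by the pair make both uncertain. Snhg9 rests on 1 implied fragment and the pseudogene Atp6v0c-ps2 on at most 24.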

How the data were processed

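NK cell RNA from 6 libraries was analysed, grouped by sample title into 3 IL-15C and 3 IL-2C libraries. The submitters' processing notes name TopHat2 2.0.13, Cufflinks 2.2.1 and the mm10 build. The gene annotation behind them is not stated in what was used here. Per the file headers, the authors deposited FPKM values with lower and upper bounds, 1 table per library, and a Cuffdiff table of group FPKM values that was scaled separately and is quoted only as the authors' values. Count models were therefore not used.

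For 280 genes with several rows the rows were added together, and 10 genes with a failed estimate were dropped. An implied fragment number was derived by taking each deposited half-interval as 2 SD of a Poisson count. Of low rows, with between 5 and 200 implied fragments, 29.4% to 31.3% were within 0.02 of a whole number, so these numbers are approximate, and intervals from them cover counting error only. Positions are those of the files with 1 added to the start.

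The main test was limma 3.58.1 (R 4.3.3) with an intensity trend on log2(FPKM + 1), two-sided, over the 9831 genes with a mean of at least 1 FPKM, with Benjamini-Hochberg adjusted p-values and a cutoff at 0.05. The fit was tested on simulated data. Members below that filter were given an exact two-sided permutation test of mean FPKM. P-values measure the spread between these libraries, which may be technical. Members and lists were chosen with earlier results of these data known. The genes named are the 10 members, the up to 4 most abundant genes per role in the granulocyte and granulopoiesis lists, the 2 most abundant genes of each other cell list, and the 6 genes most like the summed level. Adgre1, Ncr1, Cebpe, Csf3, Ly6g, Stfa2, BC100530, Cd3d, Cd3e, Cd4 and Cd8a were named after their values were seen. Acod1 was read under its older symbol.

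Alternatives were a pseudocount of 0.1 or 5, testing without a filter or with one of 5 FPKM, common-median, TPM and quantile scaling, no trend, array weights, a replicate block, the largest row of a gene, and each library left out. Exact permutation tests of single genes were run in R 4.3.3. Those of the relations with S100a8 were run in Python 3.11.15 with numpy 2.4.6 and scipy 1.17.1. Plots used matplotlib 3.10.9.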

Additional observations from a re-analysis of the deposited data

How the results depend on the processing

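Among values of single granulocyte genes under the alternatives, 133 kept their direction and their side of the threshold. Another 6 lost a call (all of Retnlg) and 12 changed sign. The 133 include values of Csf3r, Mpo and Elane from the exact permutation test. Its smallest p is 0.1, so those could not cross the threshold and only their direction was open to change. With array weights the log2 changes of S100a9, Ngp, Camp, Ltf and Lcn2 became -0.18, -0.29, -0.20, -0.20 and -0.16. With each library left out they ranged from -0.28 to 0.41 for S100a9, -0.30 to 0.45 for Ngp, -0.20 to 0.41 for Camp, -0.22 to 0.31 for Ltf and -0.24 to 0.37 for Lcn2; IL-15C replicate 1 turned all 5, and IL-2C replicate 3 turned S100a9 (-0.02) and Lcn2 (-0.05). The ratio of the summed level ranged from 0.924 to 1.59 over these omissions. The number of granulocyte genes called was 1, ranged from 0 to 1 with each library left out, and was 0 with no filter, where the adjusted p of Retnlg was 0.136, and 0 with a filter of 5 FPKM, which removes Retnlg. The call of Retnlg remained under the other scalings, pseudocounts and limma variants, with adjusted p of 0.0192 to 0.0493. The number of genes called over the whole table was 633 and became 15 with no filter, 2107 with array weights and 29 to 751 with each library left out; the cause was not tested. The medians of log2 change under the alternatives were added after the data were seen, as were these counts: the number of granulocyte genes highest in IL-15C replicate 1 was 8 after median or TPM scaling, and 3 were separated between the groups under both. No pairing of the libraries by replicate number was seen over all tested genes, where same-numbered deviations correlated at -0.03, -0.16 and -0.02. With 3 libraries per group this cannot exclude pairing. With a replicate block 517 genes were called, and 1 granulocyte gene, Retnlg, at an adjusted p of 0.0341. The block lowered the SE of every tested granulocyte gene, for S100a8 from 0.30 to 0.19, where the limma adjusted p of S100a8 was 0.157. Of the 10 genes, Elane had the fewest implied fragments, at 3 to 13 per library.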
